A study of Mus musculus with 2 samples.

Results

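The expression of 8 transcription factor genes of the ocular surface epithelium was followed in single cells of the mouse cornea: Pax6, Trp63, Barx2, Ehf, Elf3, Grhl3, Tfap2a and Tfap2b. They were chosen by name out of the 31053 genes counted, and all 8 passed the filter on low counts, as did 10412 genes in all. The cells came from CycB1-GFP mice, which report Cyclin B1 by green fluorescence, and were sorted as live GFP-positive cells of dissociated corneal epithelium. The reporter is meant to mark cycling cells. There was 1 genotype, with no treatment and no control group, and 2 libraries, each counted as 1 sample. The labels give neither age nor strain, and do not say whether the libraries came from separate animals. No p-value here can therefore be read as covering the spread between animals. The main tests rest on sums from 2 libraries. They take out the difference between the libraries and share the estimate of spread in part across genes, so a small p-value can stand beside libraries that differ. The series asks how stem cell fate is regulated in this epithelium.

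The cornea is covered by a stratified epithelium that is renewed from the limbus, the narrow ring between cornea and conjunctiva. PAX6, a paired-box and homeodomain protein, is the master regulator of eye development and is needed in the adult to hold the corneal program, and p63, the product of Trp63, maintains the proliferative basal cells of stratified epithelia. ETS-family factors such as EHF and ELF3, and the Grainyhead factor GRHL3, are known from the differentiation and barrier programs of epithelia, BARX2 is a Bar-class homeodomain protein, and AP-2 proteins such as TFAP2A and TFAP2B act early in ectoderm and eye development.

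Cells were kept when they had at least 500 detected genes and under 20% mitochondrial transcripts, which left 3187 cells of library 1 and 3001 of library 2, with a median of 5571 and 5886 UMIs (molecular barcodes, each standing for 1 captured RNA molecule). Each cell was classed by keratins alone. Krt12 is the keratin of corneal epithelium and Krt15 is high in limbal basal cells, so the share Krt12/(Krt12+Krt15) of a cell's UMIs places it between both, and the mucosal keratins Krt4, Krt13 and Krt19 mark conjunctiva. A share above 0.8 was called corneal-type (2304 and 1821 cells in libraries 1 and 2) and a share of 0.4 to 0.8 mixed (161 and 164 cells). Cells under 0.4 were called conjunctival-type with at least 3 mucosal keratin UMIs (230 and 402 cells) and limbal-type otherwise (433 and 557 cells). None of the 8 factors entered the rule. A fixed number of UMIs is reached more readily in deeper cells, and the conjunctival-type medians were 5763 and 5822 UMIs against 4598 and 4602 in limbal-type cells.

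Markers outside the rule were then set beside the names. The limbal list of 4 genes summed to 10455 and 10791 CPM (the genes' part of the class's UMIs, scaled in the usual way) in limbal-type cells of libraries 1 and 2. It summed to 10004 and 9269 in conjunctival-type, 10358 and 8208 in mixed and 7505 and 3974 in corneal-type cells. By this sum limbal-type cells stood little apart from conjunctival-type and mixed cells. Most of the sum was Krt14, at 8165 and 7717 CPM in limbal-type and 8379 and 7478 in conjunctival-type cells. Krt15, which is part of the rule, was higher in conjunctival-type (9512 and 13134 CPM) than in limbal-type cells (5047 and 6739), so it did not single out the latter. The 3 conjunctival genes outside the rule summed to 502 and 1158 CPM in conjunctival-type and to 235 and 485 in limbal-type cells, so that library 2 limbal-type cells came near library 1 conjunctival-type cells. Of single genes, the limbal gene Gpha2 stood at 882 and 1416 CPM in limbal-type cells, at 398 and 633 in conjunctival-type cells and at 39.7 and 66.8 in corneal-type cells. Muc4, a membrane mucin of conjunctiva, stood at 69.6 and 137 CPM in conjunctival-type cells against 0.927 and 4.79 in limbal-type cells. Mixed cells had 20.3 and 61.1 CPM of Muc4 and corneal-type cells 13.1 and 40.2, so it did not mark conjunctival-type cells alone. The corneal crystallin Aldh3a1 reached 7443 and 11027 CPM in corneal-type cells and stayed at 571 to 746 in the limbal- and conjunctival-type cells of both libraries. Of 6 goblet cell markers, Muc5ac, Muc5b, Spdef, Tff1 and Gcnt3 were at 0 in every class. The remaining one, the disulfide isomerase gene Agr2, stood at 44.5 and 57.0 CPM in limbal-type, 76.5 and 101 in conjunctival-type, 24.5 and 33.7 in mixed and 3.68 and 6.15 in corneal-type cells. The keratocyte and endothelial lists summed to at most 1.39 CPM in any class, with Kera at 0 throughout. The immune list summed to at most 3.54 CPM and the melanocyte list to at most 8.57, with Tyr and Tyrp1 at 0. A list of 4 Schwann cell markers summed to 50.5 to 106 CPM, with Sox10 at 0 in every sum except that of the corneal-type cells of library 1. Among the kept cells 17 carried immune markers. None of their 40981 UMIs came from any of the 8 factors, and a count of 0 allows up to 3 counts, that is a level of up to 73.2 CPM over these cells or a share of up to 17.6% of cells with a UMI, for counting error only.

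Elf3 and Grhl3 were called together, and in the same direction, in 3 of the 6 comparisons made, so their promoters are shown first. The stretches are the 250 bases before the RefSeq start site (GRCm38.p6), 5′ to 3′ on the minus strand, at chr1:135258473-135258722 for Elf3 and chr4:135573633-135573882 for Grhl3. Capitals mark the ETS core GGAA and the Grainyhead core AACCGG, each searched on both strands. GENCODE M21 lets the Elf3 gene begin at 135258568, inside the first window.
Elf3: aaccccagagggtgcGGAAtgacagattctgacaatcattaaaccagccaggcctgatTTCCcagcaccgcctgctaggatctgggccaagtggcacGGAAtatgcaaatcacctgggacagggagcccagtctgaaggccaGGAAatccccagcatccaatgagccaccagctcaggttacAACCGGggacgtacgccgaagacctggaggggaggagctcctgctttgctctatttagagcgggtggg
Grhl3: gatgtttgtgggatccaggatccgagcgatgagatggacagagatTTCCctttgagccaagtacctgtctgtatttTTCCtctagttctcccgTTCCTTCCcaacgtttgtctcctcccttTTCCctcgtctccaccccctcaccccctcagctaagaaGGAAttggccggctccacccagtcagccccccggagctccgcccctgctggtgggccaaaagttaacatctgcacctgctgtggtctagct
The Elf3 window held 4 ETS cores and 1 Grainyhead core, 68 bases before the start. The Grhl3 window held 6 ETS cores and no match to AACCGG. Of 32851 promoter windows of this length, 93.4% held GGAA on either strand, with a median of 3 matches, and 5.62% held AACCGG. The table had windows for 5 of the 8 genes, and Trp63, Barx2 and Ehf were without one.

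**Figure D1:**
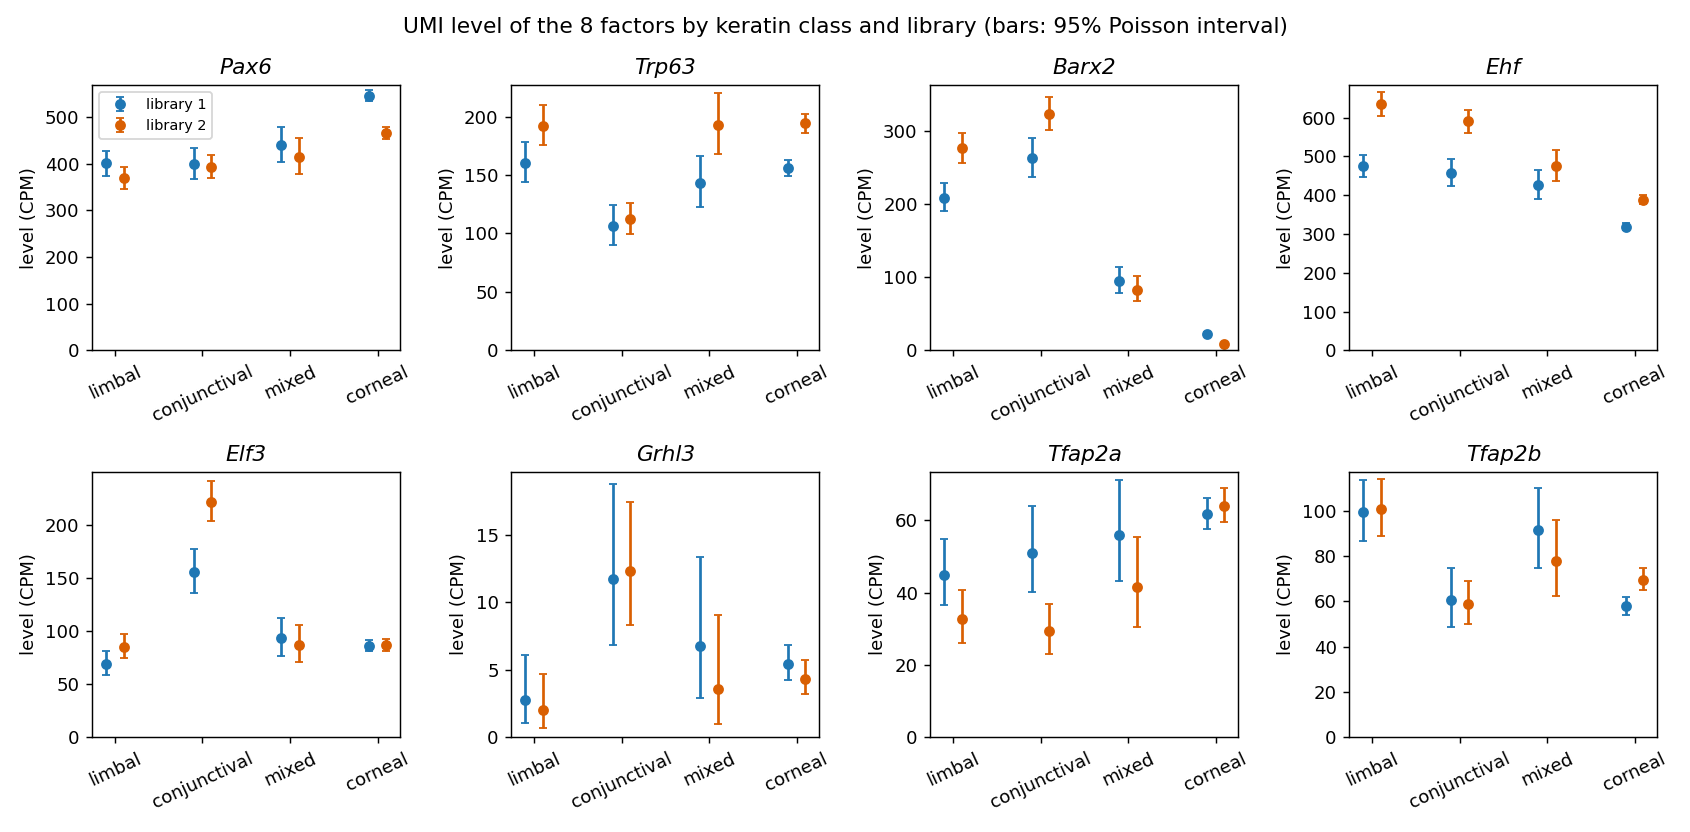
UMI level (CPM, linear axes from 0) of each factor in the 4 keratin classes. Blue points are library 1 and orange points library 2, with bars for the exact 95% Poisson interval, which covers counting error only. Barx2 lay at 209.5 to 324 CPM in limbal- and conjunctival-type cells and at 22.8 and 8.83 in corneal-type cells, and Elf3 and Grhl3 were highest in conjunctival-type cells of both libraries.

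Limbal-type cells were compared with corneal-type cells to see which factors differ between these keratin classes. The names do not stand for a measured position in the tissue. Barx2, Ehf and Tfap2b were higher in limbal-type cells and Pax6 and Tfap2a were lower, while Trp63, Elf3 and Grhl3 did not pass the test. Thus 3 of 8 factors rose, where 15.3% of all genes tested were called higher, and 2 of 8 fell, where 14.9% were called lower. The median log2 fold change was -0.12 over the 8 factors and -0.0041 over all genes. Calls are those of edgeR's quasi-likelihood test on summed UMIs with library as a block, at a Benjamini-Hochberg adjusted p under 0.05 over all genes.

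Barx2 showed the widest range of the 8 (chromosome 9, 31846044 to 31913462, minus strand in GENCODE M21, GRCm38). Its level was 209.5 and 277 CPM in limbal-type cells of libraries 1 and 2 and 263 and 324 in conjunctival-type cells. Mixed cells had 94.8 and 83.3 CPM. Corneal-type cells had 22.8 CPM in library 1 (95% Poisson interval 20.4 to 25.5) and 8.83 in library 2 (7.20 to 10.7). Every limbal- and conjunctival-type value lay above every mixed value, and those lay above both corneal-type values. Limbal-type cells exceeded corneal-type cells by a log2 fold change of 3.89 (SE 0.54, edgeR adjusted p = 0.0176), a 14.8-fold difference. Library 1 alone gave 3.12 and library 2 alone 4.88, a gap that follows the corneal-type level. Here and below, values for a library alone are differences of log2 CPM with a prior count of 2, not fits. The prior count draws values from few UMIs towards 0.

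The corneal-type Barx2 signal was low enough that the 17 immune-marked cells cannot set it apart from free RNA at their depth. The same held for other class levels under 73.2 CPM. These were Grhl3 and Tfap2a in every class, Tfap2b in conjunctival- and corneal-type cells, and Elf3 in library 1 limbal-type cells (69.1 CPM). Among corneal-type cells without any Krt15 UMI Barx2 stood at 16.9 and 4.04 CPM, against 31.8 and 17.5 in those with at least 1. The 4 limbal markers outside the rule summed to 7505 and 3974 CPM in corneal-type cells of libraries 1 and 2. Most of this was Krt14 (6651 and 3372 CPM). Ifitm3 (803 and 532 CPM) and Cd63 (11.4 and 3.64) were also higher in library 1, the library with more Barx2 there. Gpha2 went the other way (39.7 and 66.8 CPM). All 4 markers were detected in every class, and their part in the Barx2 values was not tested.

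Counted by cell, Barx2 gave the same order. With each cell thinned to 2000 UMIs, a Barx2 UMI was found in 30.1% and 39.7% of limbal-type cells (exact 95% interval 25.8 to 34.8% and 35.4 to 44.1%). The share was 47.8% and 48.6% in conjunctival-type cells, 15.2% and 12.5% in mixed cells, and 4.22% and 1.60% in corneal-type cells. Thinning left out 15 and 58 limbal-type and 265 and 199 corneal-type cells that were shallower. Without thinning the shares were 58.0% and 60.9% in limbal-type and 10.5% and 4.56% in corneal-type cells.

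Along the keratin axis, Barx2 was lower in the last bin than in the first, though it did not go down at every step. In 10 equal bins of the Krt12 share it went from 267 CPM in the first bin to 142 in the third, 168 in the fourth, 99.8 in the fifth, 53.9 in the eighth and 19.8 in the last bin of library 1. Library 2 went from 317 through 191, 204, 96.2 and 65.5 to 6.4 in the same bins. Pax6 and Tfap2a were higher in the last bin than in the first, and Ehf was lower. Just under the class bound of 0.4 (0.35 to 0.4, 16 cells in each library) Barx2 stood at 189 and 291 CPM, and just above it (0.4 to 0.45, 20 and 13 cells) at 68.8 and 109. Around the bound of 0.8 it went from 63.1 to 101 CPM in library 1 and from 69.4 to 42.5 in library 2. These values are a description, with no test.

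**Figure D2:**
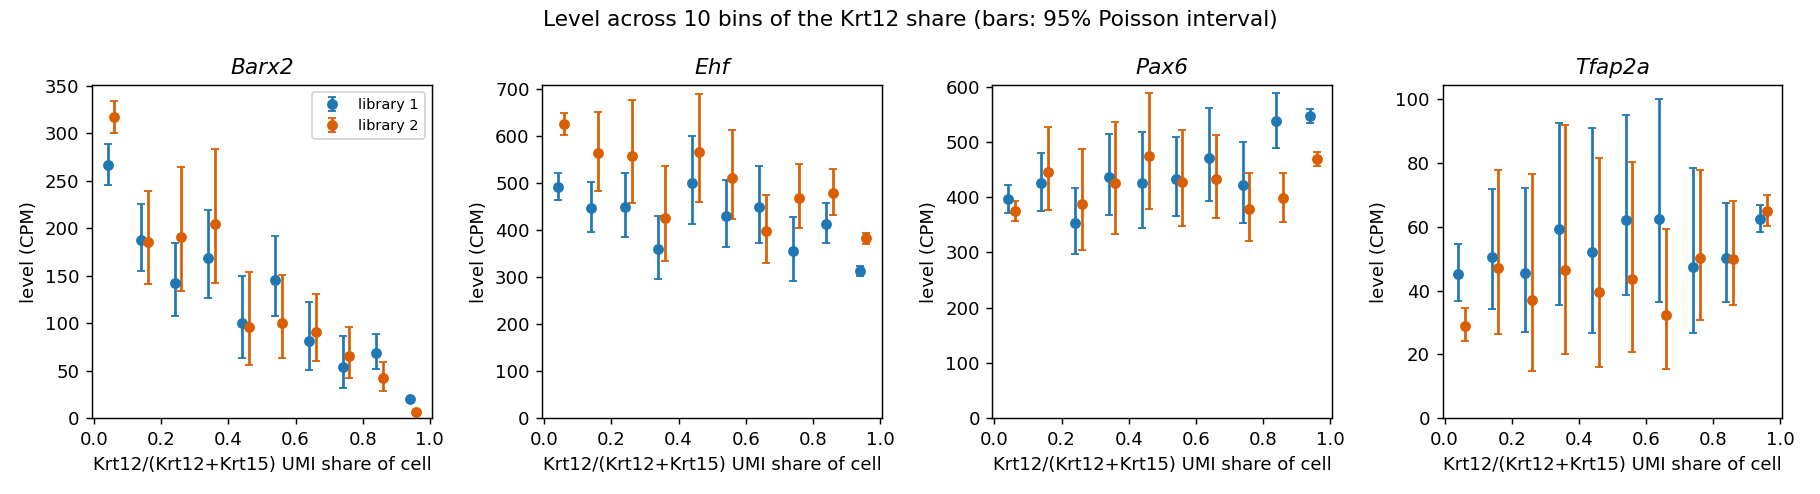
Level (CPM) of Barx2, Ehf, Pax6 and Tfap2a in 10 bins of the Krt12/(Krt12+Krt15) share, for library 1 (blue) and library 2 (orange), with exact 95% Poisson bars. Barx2 goes from 267 and 317 CPM in the first bin to 19.8 and 6.4 in the last.

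Pax6 (chromosome 2, 105668900 to 105697364, plus strand) was present in every class. It measured 400.5 and 369 CPM in limbal-type, 399 and 394 in conjunctival-type, 440 and 415 in mixed and 546 and 465 in corneal-type cells. Corneal-type cells were the highest in both libraries, and the limbal- and conjunctival-type values overlapped. Limbal-type cells were lower by a log2 fold change of -0.43 (SE 0.079, edgeR adjusted p = 0.000118), which is a factor of 1.35. Without the library block the adjusted p was 0.0672. A Pax6 UMI was found in 62.2% and 58.3% of corneal-type and 56.5% and 48.9% of limbal-type cells at 2000 UMIs. Reads of the antisense gene Pax6os1 were few, 34 and 60 UMIs over all kept cells.

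Tfap2a (chromosome 13, 40715302 to 40738376, minus strand), the founding AP-2 gene, shared that direction. It stood at 61.8 and 64.1 CPM in corneal-type, 45 and 32.7 in limbal-type, 51.0 and 29.3 in conjunctival-type and 55.9 and 41.6 in mixed cells. The log2 fold change of limbal-type against corneal-type cells was -0.75 (SE 0.16, edgeR adjusted p = 0.000733), with an adjusted p of 0.0964 when the library block was left out. Corneal-type values of both libraries lay above all others, and the limbal- and conjunctival-type values overlapped.

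Tfap2b (chromosome 1, 19208914 to 19238576, plus strand) went the other way in limbal-type cells. Its level was 99.7 and 101 CPM in limbal-type cells against 57.9 and 69.6 in corneal-type, 60.6 and 59.0 in conjunctival-type and 91.4 and 77.9 in mixed cells. Limbal-type cells had the highest value in both libraries, and the conjunctival- and corneal-type values overlapped. Against corneal-type cells this was a log2 fold change of 0.62 (SE 0.11, edgeR adjusted p = 0.000127).

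Ehf (chromosome 2, 103263433 to 103303278, minus strand) was higher in Krt15-dominant cells of both kinds. Limbal-type cells had 474 and 634 CPM, conjunctival-type cells 458 and 590, mixed cells 427 and 476 and corneal-type cells 319 and 389. Within each library the classes kept this order, but the library 2 level lay above that of library 1 in every class. Limbal-type cells were higher than corneal-type cells by 0.60 on the log2 scale (SE 0.079, edgeR adjusted p = 9.75e-07).

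Trp63 (chromosome 16, 25683763 to 25892102, plus strand) measured 160 and 192 CPM in limbal-type cells and 156 and 194 in corneal-type cells. The log2 fold change was -0.02 with a 95% interval of -0.21 to 0.16. At 2000 UMIs, 28.2% and 29.9% of limbal-type and 25.3% and 32.9% of corneal-type cells had a Trp63 UMI. Elf3 (log2 fold change -0.21, edgeR adjusted p = 0.238) and Grhl3 (-1.07, edgeR adjusted p = 0.0709, from 6 and 5 UMIs in limbal-type cells) did not pass the threshold. Grhl3 passed when cells needed 1000 genes (adjusted p = 0.0207) or 10 keratin UMIs (0.0422), and its adjusted p ran from 0.0207 to 0.304 over the alternatives.

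**Figure D3:**
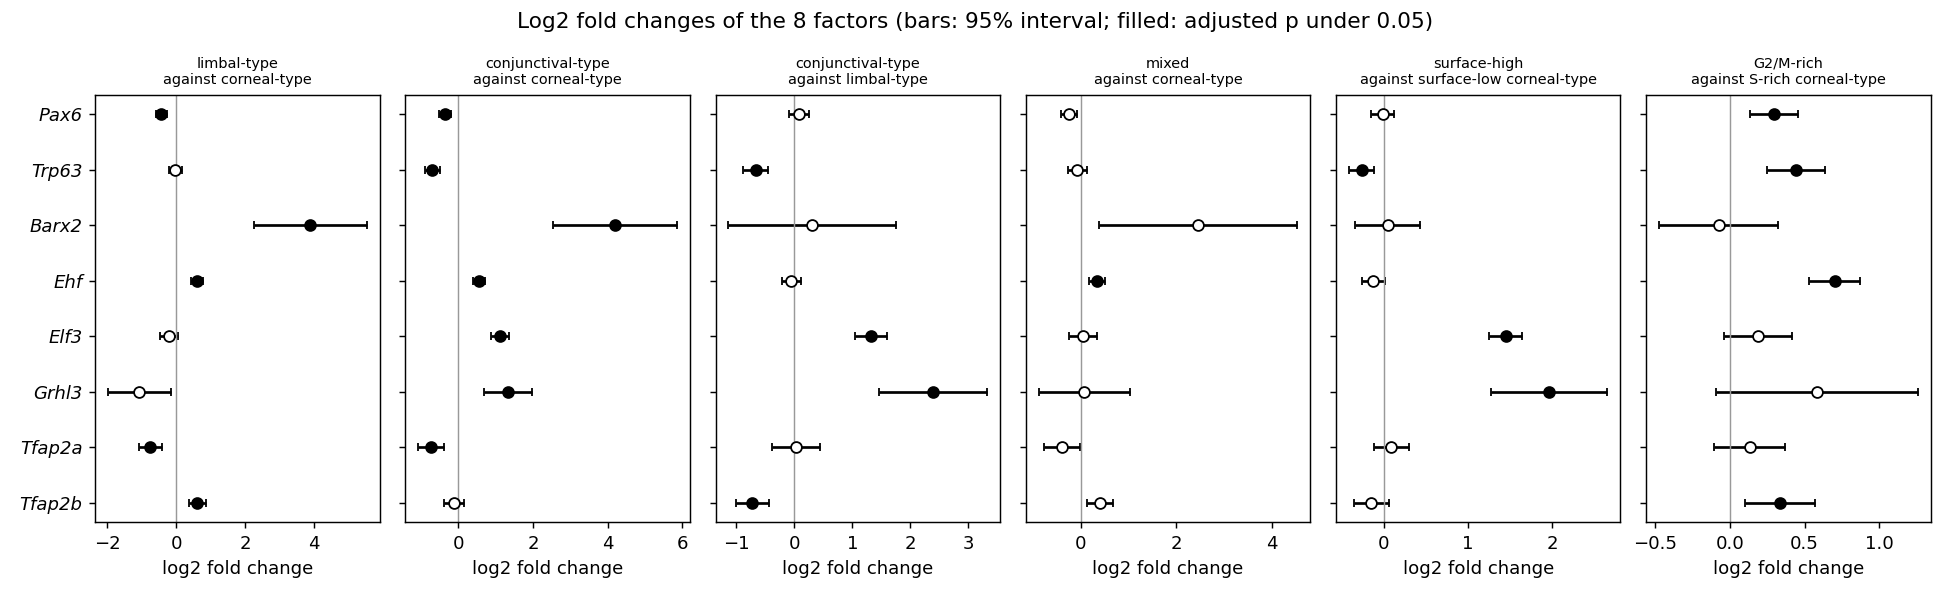
Log2 fold changes of the 8 factors (rows) in the 6 comparisons (panels), each panel with its own axis range. Bars are 95% intervals and filled points have an edgeR adjusted p under 0.05. Barx2 is at 3.89 and 4.20 in the first 2 panels, and Elf3 and Grhl3 are filled and to the right of 0 in the second, the third and the fifth.

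Other epithelial transcription factors, a list of 50 genes of which 34 could be tested, were called higher in limbal-type cells in 19 cases and lower in 5, with a median log2 fold change of 0.50. Sox4, an SRY-related factor, was higher by 4.17 (SE 0.24, edgeR adjusted p = 3.69e-05), the homeobox gene Pitx1 by 3.00 (2.13 in library 1 alone and 3.41 in library 2 alone), Mecom by 2.72 and the Iroquois gene Irx3 by 2.31. Those called lower included Zfp750 (-0.63), Sox15 (-0.54) and Tfap2c, another AP-2 gene (-0.44). All 3 calls ended without the library block (edgeR adjusted p = 0.295, 0.0529 and 0.190), and those of Sox15 (0.0697) and Tfap2c (0.349) in DESeq2. Over the 4 gene lists of this comparison, 10 of the 29 calls looked at by name were lost without the block and 5 in DESeq2.

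Genes known as PAX6 targets or partners in cornea moved in both directions: 3 of 8 tested rose in limbal-type cells and 5 fell, with a median of -0.81. Those that fell were led by Slurp1, a secreted Ly6-family protein of the corneal surface (log2 fold change -6.08), Aldh3a1 (-3.72), transketolase (Tkt, -3.01) and the retinaldehyde dehydrogenase Aldh1a1 (-1.07). The helix-loop-helix inhibitor Id1 (1.38), E-cadherin (Cdh1, 0.74) and beta-catenin (Ctnnb1, 0.44) were higher. Aldh3a1, Tkt and Slurp1 were also among the corneal markers on which the class names were checked. Without the block the calls of Aldh1a1 and Id1 were lost.

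Basal-layer genes linked to p63 moved in both directions. Of 20 tested, 5 were higher and 10 lower, with a median of -0.27. Igfbp3 (3.96, with 3.57 and 4.66 in libraries 1 and 2 alone), P-cadherin (Cdh3, 2.05), the tight junction gene Cldn1 (1.81, with 1.20 and 2.33) and the laminin chain Lamb3 (1.23) were higher. Collagen XVII (Col17a1, -1.0) and the integrin Itga3 (-0.65) were lower, and the basement membrane gene Fras1 had 2 and 0 UMIs in limbal-type against 151 and 168 in corneal-type cells. Barrier genes, of which 19 were tested, were higher in 4 cases and lower in 8 (median -0.41). The desmosome-linked plakins Evpl (-1.51) and Ppl (-1.16) and the claudin Cldn7 (-1.04) fell, and the simple keratins Krt8 (3.03, with 3.65 and 2.50 in libraries 1 and 2 alone) and Krt18 (1.16) rose.

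Conjunctival-type against corneal-type cells gave the most calls among the 8 factors. Barx2, Ehf, Elf3 and Grhl3 were higher in conjunctival-type cells and Pax6, Tfap2a and Trp63 lower. That is 4 of 8 higher against 16.6% of all genes, and 3 of 8 lower against 15.3%. The median log2 fold change was 0.22 for the factors and -0.015 over all genes. Both this and the previous comparison use the same corneal-type cells, so they are not independent.

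Barx2 was higher by 4.20 on the log2 scale (SE 0.54, edgeR adjusted p = 0.0143), with 3.48 in library 1 alone and 5.13 in library 2 alone. Ehf was higher by 0.55 (edgeR adjusted p = 4.42e-06, 0.0533 without the block). Pax6 was lower by a log2 fold change of -0.35 (edgeR adjusted p = 0.00111, 0.115 without the block). For Tfap2a the value was -0.73 (edgeR adjusted p = 0.00155), with 0.115 when the block was left out and 0.0551 in DESeq2, and the libraries alone gave -0.30 and -1.11. Tfap2b did not differ beyond its spread (-0.11, 95% interval -0.37 to 0.16).

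Elf3 (chromosome 1, 135253575 to 135258568, minus strand), whose upstream sequence is given above, stood at 156 and 222 CPM in conjunctival-type cells. It was at 86.2 and 86.8 in corneal-type, 93.1 and 86.8 in mixed and 69.1 and 85.4 in limbal-type cells. Both conjunctival-type values lay above all 6 others. The difference from corneal-type cells was 1.12 on the log2 scale (SE 0.12, edgeR adjusted p = 1.11e-07). At 2000 UMIs, 25% and 31.6% of conjunctival-type cells had an Elf3 UMI, against 15.2% and 12.3% of corneal-type cells.

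Grhl3 (chromosome 4, 135541888 to 135573630, minus strand) was sparse, with 17 and 31 UMIs in conjunctival-type and 75 and 50 in corneal-type cells. These gave 11.7 CPM (95% Poisson interval 6.82 to 18.8) and 12.3 CPM (8.34 to 17.4) in conjunctival-type and 5.42 and 4.33 CPM in corneal-type cells. In limbal-type cells it was at 2.78 and 1.99. The log2 fold change of conjunctival-type against corneal-type cells was 1.32 (SE 0.31, edgeR adjusted p = 0.00171).

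Trp63 was lowest in conjunctival-type cells of both libraries, at 106 and 112 CPM, while the 6 other values ran from 143 to 194. Against corneal-type cells this gave -0.70 on the log2 scale (SE 0.098, edgeR adjusted p = 3.42e-06). A Trp63 UMI was found in 17.4% and 19.3% of the thinned conjunctival-type cells.

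The barrier list moved one way here. Of 19 genes tested 15 were higher in conjunctival-type cells and none lower, also at an unadjusted p under 0.05 and in DESeq2 (0 genes each), with a median of 0.83. Krt8 rose by 4.10 (SE 0.45, edgeR adjusted p = 0.00903), the envelope cross-linking enzyme Tgm1 by 2.49, the envelope protein Sprr1a by 2.36 (2.96 and 1.45 in libraries 1 and 2 alone) and occludin (Ocln) by 2.19. Of the p63-linked list 4 of 20 were higher and 11 lower (median -0.28). Itga3 (-2.24), Col17a1 (-1.90) and the Notch ligand Jag2 (-1.51) fell, and Fras1 had 1 and 0 UMIs against 151 and 168. Igfbp3 (3.95, with 3.05 and 5.23 in libraries 1 and 2 alone), Cldn1 (1.91), Cdh3 (1.86) and Perp (0.44) were higher.

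The PAX6-linked genes had 3 of 8 higher and 5 lower (median -1.03), led by Slurp1 (-6.15), Aldh3a1 (-3.86) and Tkt (-3.42). Among the other transcription factors 20 of 34 were higher and 2 lower (median 0.58). Pitx1 (4.13, with 3.43 and 4.37 in libraries 1 and 2 alone), Sox4 (4.04), the ETS gene Elf5 (3.84) and Mecom (2.80, with 3.27 and 2.16) rose most, and Tfap2c (-1.40) and Sox15 (-0.97) fell. Of the 25 list calls looked at by name, 5 were lost without the block (Aldh1a1, Id1, Igfbp3, Krt8 and Sprr1a) and 0 in DESeq2.

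Conjunctival-type and limbal-type cells, which share a low Krt12 share and differ by mucosal keratins, differed in 4 of the 8 factors. Elf3 and Grhl3 were higher in conjunctival-type cells, where 6.78% of genes were called higher, and Tfap2b and Trp63 were lower, where 4.73% were. The median of the 8 factors was 0.051, against -0.028 over all genes. Elf3 rose by 1.33 (SE 0.13, edgeR adjusted p = 3.51e-07) and Grhl3 by 2.39 (SE 0.45, edgeR adjusted p = 0.000564). Tfap2b was lower by a log2 fold change of -0.73 (SE 0.14, edgeR adjusted p = 0.000558) and Trp63 by -0.67 (SE 0.10, edgeR adjusted p = 5.48e-05, 0.0788 without the block).

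For the other 4 factors the intervals of the difference were as follows. Barx2 had a log2 fold change of 0.31 with an interval of -1.14 to 1.75, wide enough to hold a change of more than 1 in either direction. Pax6 lay at 0.077 (-0.094 to 0.25), Ehf at -0.051 (-0.22 to 0.12) and Tfap2a at 0.025 (-0.39 to 0.44).

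Within cells with a Krt12 share under 0.4, the level of Elf3 climbed with the number of mucosal keratin UMIs. It went from 61.8 and 70.5 CPM in cells with 0 such UMIs to 141 and 177 in cells with 6 to 19, and to 307 and 378 in cells with 20 or more. Grhl3 stayed at or below 7.8 CPM up to 19 UMIs and stood at 36.9 and 26.0 CPM in the last group of 37 and 102 cells. Trp63 went down from 157 and 198 to 46.1 and 93.5 CPM, and Tfap2b from 111 and 98.8 to 58.4 and 45.5. Median depth went up along the same steps, from 4344 and 4379 to 8013 and 7076 UMIs, and its part in the levels was not tested.

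Corneal-type cells with mucosal keratin UMIs showed the same course for Elf3, from 74.6 and 70.2 CPM at 0 UMIs to 214 and 337 at 6 to 19 UMIs. The last step held only 9 and 12 cells, with 506 and 532 CPM. Barx2 was at 17.3 and 6.1 CPM in corneal-type cells with 0 mucosal UMIs and at 81.7 and 29.7 at 6 to 19 UMIs (33 and 23 cells). Between the same groups Krt15 went from 156 and 172 to 654 and 1655 CPM. The cells with 6 to 19 mucosal UMIs were deep, with a median of 9482 and 9946 UMIs. The part of depth or of doublets in these levels was not tested.

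**Figure D4:**
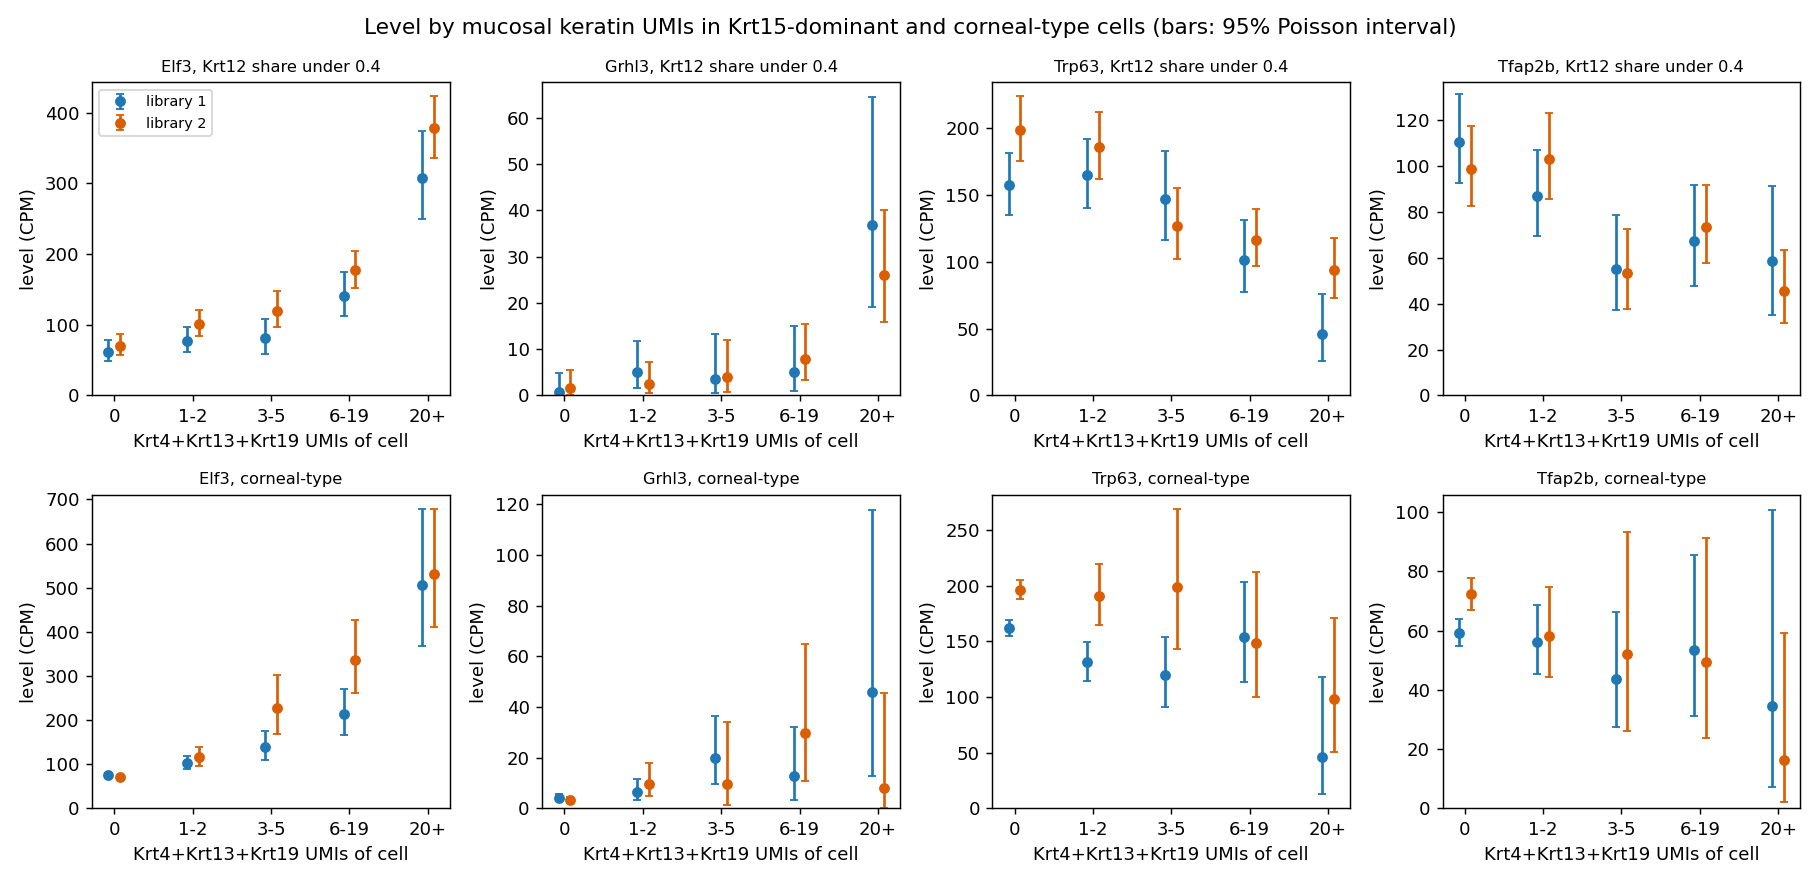
Level (CPM) of Elf3, Grhl3, Trp63 and Tfap2b by the number of Krt4, Krt13 and Krt19 UMIs of a cell, in cells with a Krt12 share under 0.4 (top row) and in corneal-type cells (bottom row). Blue is library 1 and orange library 2, with exact 95% Poisson bars. Elf3 goes up over the steps in both rows, and the last corneal-type step holds 9 and 12 cells.

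The barrier list again moved with Elf3 and Grhl3, with 13 of 19 genes higher in conjunctival-type than in limbal-type cells and none lower (0 at an unadjusted p under 0.05 and 0 in DESeq2), for a median of 1.36. Sprr1a was higher by 3.55 (SE 0.58, edgeR adjusted p = 0.0258), Ocln by 2.14 and Cldn4 by 1.75. Sprr1b was called on few molecules, 30 and 2 UMIs against 3 and 1. With the prior count, which weighs on so few UMIs, library 1 alone gave a log2 fold change of 3.56 and library 2 alone 0.56. Of the other transcription factors, Elf5 (2.38), Zfp750 (1.96), the Grainyhead gene Grhl1 (1.66) and Pitx1 (1.13) were among 8 of 34 that were higher, and Tcf4 (-0.97), Tfap2c (-0.96), Nfib (-0.50) and Tcf7l2 (-0.44) among 5 lower (median -0.036). Of the p63-linked genes 4 of 20 were higher, among them Perp (0.90), Dsp (0.53) and Krt5 (0.28), and 9 were lower, led by Itga3 (-1.58), Jag2 (-1.56), Lamb3 (-1.09) and Itgb4 (-1.01), for a median of -0.41. None of the 8 PAX6-linked genes passed the threshold in edgeR or in DESeq2, with Cdh1 and Aldh1a1 under an unadjusted edgeR p of 0.05, and their median was -0.067. Of the 20 list calls looked at by name, 11 were lost without the block and 5 in DESeq2, Krt5, Pitx1, Sprr1b, Tcf7l2 and Tfap2c.

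Mixed cells, whose Krt12 share lies between both ends, differed from corneal-type cells in 1 of the 8 factors. Ehf was higher by 0.34 (SE 0.082, edgeR adjusted p = 0.00849), and 4.50% of genes were called higher and 2.79% lower. DESeq2 (adjusted p = 0.159), thinning (0.282) and a fit without the block (0.541) ended the Ehf call. In the fit with all settings as above no factor was called lower, nor in DESeq2, and Pax6 and Tfap2a had an unadjusted edgeR p under 0.05. Pax6 was called lower by edgeR without the filter on low counts (-0.32, adjusted p = 0.00373), without the 3% of cells with the highest doublet scores (-0.34, 0.0233) and without the rule keratins (-0.26, 0.0499). Barx2 had the largest value, 2.45 (SE 0.68), and missed the threshold with edgeR (adjusted p = 0.207) but passed it with DESeq2 (0.000588). The median over the 8 factors was 0.057, against 0.0042 over all genes. Mixed cells had higher median doublet scores, 0.0591 and 0.0548, than corneal-type (0.0406 and 0.0388) or limbal-type cells (0.0295 and 0.0280). Without the 3% of cells with the highest scores Barx2 had a log2 fold change of 2.24, and besides Pax6 the gene Tfap2b was called by edgeR (0.49, adjusted p = 0.0499). Whether doublets set the intermediate levels was not tested.

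Other transcription factors had 8 of 34 higher in mixed cells and none lower (0 by edgeR's unadjusted p and 0 by DESeq2, median 0.31), among them Sox4 (2.86), Irx3 (2.34), Elf5 (2.18) and Bcl11b (0.68). The PAX6-linked list had 1 higher (Cdh1, 0.59) and 3 lower (Slurp1, -2.63, Aldh1a1, -1.39, and Wnt4, -0.45) of 8, with a median of -0.78. The p63-linked list had 1 higher (Cdh3, 1.32) and 2 lower (Col17a1, -0.53, and Krt5, -0.18) of 20, with a median of -0.16. Of 19 barrier genes Tgm1 (1.26), St14 (0.85) and Cdh1 were higher and none lower by edgeR or DESeq2, with 1, Evpl, at an unadjusted edgeR p under 0.05 (median 0.38). The Tgm1 value turned to -0.72 after thinning. Of the 13 list calls looked at by name, 11 were lost without the block and 3 in DESeq2 (Bcl11b, Krt5 and Tgm1).

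Corneal-type cells were then split by a score of surface differentiation, the share of UMIs from 12 genes such as Slurp1, Ly6d, Upk1b and Krt6a, none of them among the 8 factors. The 768 and 607 highest-scoring cells of libraries 1 and 2 were set against as many of the lowest-scoring. Elf3 and Grhl3 were higher in surface-high cells, where 8.69% of genes were called higher, and Trp63 was lower, where 6.05% were. The median of the 8 factors was 0.015, against -0.0021 over all genes.

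Elf3 measured 54.6 and 49.3 CPM in surface-low and 130 and 145 in surface-high cells, with no overlap. Surface-high cells were higher by 1.45 on the log2 scale (SE 0.096, edgeR adjusted p = 1.27e-10). Grhl3 had 11 and 7 UMIs in surface-low and 48 and 32 in surface-high cells, that is 2.60 and 2.06 against 9.90 and 7.70 CPM. Its log2 fold change was 1.97 (SE 0.33, edgeR adjusted p = 0.000171), and its adjusted p was 0.140 in DESeq2. Trp63 went from 168 and 216 to 134 and 172 CPM, so that each library fell although the groups overlapped. Its log2 fold change was -0.26 (SE 0.073, edgeR adjusted p = 0.0151), and DESeq2 did not call it (0.707). For Pax6 the log2 fold change was -0.015 with an interval of -0.16 to 0.12.

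Surface-high cells also differed in cycle state, with a median of 75% and 75.8% of their S and G2/M list UMIs from G2/M genes against 84.0% and 81.2% in surface-low cells. Their median depth was 5940 and 6472 against 5581 and 6112 UMIs. The part of either in the result was not tested. This fit had 4 sums and 1 residual degree of freedom.

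Barrier genes outside the score were higher in surface-high cells in 13 of 16 cases and lower in none, also at an unadjusted p under 0.05 and in DESeq2 (0 genes each), with a median of 0.996. Evpl rose by 1.34 (SE 0.083, edgeR adjusted p = 4.60e-11), the protease inhibitor Spint1 by 1.18 and Tgm1 by 1.45 (2.14 in library 1 alone and 0.58 in library 2 alone). Ocln had 21 and 30 UMIs against 4 and 2. Of 31 other transcription factors 6 were higher, among them Zfp750 (1.95), Grhl1 (1.52) and Ovol1 (1.19). Prdm1, also called higher, had 17 and 18 UMIs against 4 and 0. Another 7 were lower, among them Sox4 (-1.86), Bcl11b (-0.67), Ets2 (-0.54) and Nfib (-0.47), and the median was -0.029. The p63-linked list had 4 of 19 higher (among them Perp, 0.63, Dsp, 0.43, and Krt5, 0.41) and 8 lower, led by Jag2 (-0.86), Itga3 (-0.61), Itgb1 (-0.54) and Itgb4 (-0.46), with a median of -0.22. The PAX6-linked list had 4 of 7 higher, Aldh1a1 (0.37), Tkt (0.31), Cdh1 (0.31) and Wnt4 (0.20), and none lower (0 by edgeR's unadjusted p and 0 by DESeq2, median 0.25). Of the 24 list calls looked at by name, 23 were lost without the block and 11 in DESeq2, among them those of Tgm1, Ocln, Ovol1 and Prdm1.

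The last comparison asked how the factors vary over the cell cycle within corneal-type cells. Cells with at least 10 UMIs of the 42 S and 52 G2/M genes were ranked by the G2/M part. The highest 743 and 587 cells (medians 93.0% and 92.7%) were set against as many of the lowest (57.0% and 58.1%). The lowest are called S-rich only by contrast, since at the median most of their list UMIs still came from G2/M genes. Ehf, Pax6, Trp63 and Tfap2b were higher in G2/M-rich cells, 4 of 8 where 11.8% of genes were called higher, and none was lower (0 by edgeR's unadjusted p and 0 by DESeq2), where 15.5% of genes were. The median log2 fold change was 0.32 over the factors and -0.0018 over all genes. This fit, too, had 4 sums and 1 residual degree of freedom, so its estimate of spread leaned on the other genes.

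Ehf measured 232 and 295 CPM in S-rich and 427 and 484 in G2/M-rich cells, with no overlap, and its log2 fold change was 0.70 (SE 0.087, edgeR adjusted p = 2.62e-14). Trp63 had 126 and 163 against 188 and 229 CPM (0.44, SE 0.099, edgeR adjusted p = 8.57e-05). Pax6 had 448 and 405 against 617 and 505 CPM (0.30, SE 0.082, edgeR adjusted p = 0.00197). Tfap2b had 51.4 and 63.8 against 75.4 and 78.5 CPM (0.33, SE 0.12, edgeR adjusted p = 0.0238). All 4 were higher in both libraries, but DESeq2 called Ehf alone, with adjusted p = 0.182 for Pax6, 0.0727 for Trp63 and 0.567 for Tfap2b. Tfap2b was also lost without the 3% highest doublet scores (0.0560) and after thinning (0.375). Depth was 5780 and 6745 UMIs in G2/M-rich against 5690 and 6073 in S-rich cells (medians), and the surface score was lower in G2/M-rich cells (0.391% and 0.471% against 0.478% and 0.559%). Their part in the result was not tested.

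Barx2 (-0.075, interval -0.48 to 0.32) and Tfap2a (0.13, -0.10 to 0.37) did not pass. Of 32 other transcription factors 15 were higher and 2 lower (median 0.29). Tcf4 (1.02) and Sox4 (1.01, with 0.54 and 1.99 in libraries 1 and 2 alone) were higher, and Dlx3 (17 and 14 against 4 and 1 UMIs) and Mecom (13 and 26 against 3 and 6 UMIs) were called higher on few molecules. Nfib (-0.34) and Grhl1 (-0.54) were lower. The barrier list had 4 of 18 higher, Prss8 (0.78), Esrp2 (0.55), Krt8 (0.55) and Esrp1 (0.49), and 3 lower, Krt18 (-1.02), Tgm1 (-0.97) and St14 (-0.45), with a median of 0.0086. The p63-linked list had 4 of 20 higher, led by Fermt1 (0.57) and Dst (0.36), and 3 lower, among them Krt14 (-0.54), with a median of -0.048. Krt14 lay at -0.97 in library 1 alone and -0.099 in library 2 alone. Its SE of 0.056 (edgeR adjusted p = 6.53e-20) did not reflect that gap. The edgeR call of Krt14 ended without the filter on low counts (adjusted p = 0.738), with a mitochondrial limit of 10% (0.499) and after thinning (0.652). The PAX6-linked list had 1 of 8 higher (Aldh1a1, 0.30) and 2 lower (Id1, -0.35, and Slurp1, -0.24), with a median of 0.0089. The libraries alone gave 0.61 and 0.066 for Aldh1a1, -0.58 and -0.052 for Id1 and -0.055 and -0.42 for Slurp1. Of the 22 list calls looked at by name, 21 were lost in DESeq2 and 19 without the block.

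Detection of pairs of factors in the same cell was also measured. For 9 pairs, among them Pax6 with Barx2 and Tfap2a with Tfap2b, the share of thinned cells with UMIs of both was set beside the product of the single shares in each class and library. In all 72 values the product lay within the exact 95% interval. Pax6 and Barx2 were found together in 17.2% and 20.8% of limbal-type cells, where the product was 17.0% and 19.4%. With this few UMIs per gene a weak link between factors was not detectable.

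Over the 8 sums (4 classes in 2 libraries) some factors ran opposite to each other and others together. The Pearson correlation of log2 CPM was -0.94 between Ehf and Pax6, -0.93 between Ehf and Tfap2a, -0.88 between Trp63 and Grhl3, 0.86 between Elf3 and Grhl3, 0.82 between Barx2 and Ehf and 0.80 between Pax6 and Tfap2a. These are descriptions, since the 8 sums share 2 libraries and differ in depth. Among 2936 other genes with a mean of at least 50 CPM, those closest to Barx2 were Osr2 (0.985), Cd63 (0.984), which was also one of the limbal markers, and Sox4 (0.980). For Pax6 they were Rhob (0.979), Hmgcs1 (0.961) and Serpinb5 (0.950), and for Trp63 Kif15 (0.968), Jag2 (0.966) and Crim1 (0.957). Ehf was followed most closely by Cnpy2 (0.987), Ndufv1 (0.978) and Ece1 (0.966), and Elf3 by Rpp21 (0.989), Arpc5 (0.974) and Anxa2 (0.970). Closest to Grhl3 were Ikzf2 (0.987), Dsc2 (0.980) and Mall (0.970), to Tfap2a Ppil1 (0.978), Naa20 (0.975) and Nfkbiz (0.958), and to Tfap2b Sf3b3 (0.970), Rpl9-ps6 (0.957) and Ttc3 (0.953). The pseudogene Rpl9-ps6 may share reads with its parent gene.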

How the data were processed

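The authors deposited 1 matrix of raw UMI counts whose header, per the file headers, names 10x software of version 3.1.0. The submitters' processing notes name Cell Ranger 3.1.0, Seurat 5.0.0 and the build GRCm38 (mm10). Libraries were made with 10x Chromium 3′ v3 chemistry, per the labels' protocols. Barcodes carry suffix 1 or 2, taken as library 1 and 2. Which labelled replicate each is was not given. The libraries held 19001107 and 18030874 UMIs, and 5 barcode sequences occurred in both.

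Of 6752 barcodes 6188 were kept, 475 having under 500 genes and 311 having 20% or more mitochondrial UMIs. Cells with fewer than 5 Krt12 and Krt15 UMIs (59 and 57) entered no class. Scrublet (scanpy 1.11.5) called 4 cells, too few for it to have worked, so no doublets were removed and only its scores were used. Tests used edgeR 4.0.16 (glmQLFit, robust, TMM, filterByExpr; R 4.3.3) on UMIs added up over the cells of a class in each library, and the model held a library term, since all sums of a library stem from the same sample. The class fit had 8 sums and 3 residual degrees of freedom. DESeq2 1.42.0 was an alternative. Levels are CPM with exact Poisson intervals, and shares have exact Clopper-Pearson intervals, both for counting error only. Counts were also simulated, with 200 genes given a log2 change of 1. The limbal-type comparison recovered 152 (of 10078 genes run), the surface comparison 180 (10488) and the cycle comparison 176 (10409). False calls numbered 7, 7 and 6. The simulated counts had no library effect, and genes with a low mean count were not changed, so the check does not cover these. The counts were also drawn from the kind of model that edgeR fits, with its own fitted trend of spread. Genes whose spread departs from that trend are therefore not covered either, and the few false calls say little about real counts.

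The 8 factors, the gene lists and the comparisons were chosen with earlier results of these data known. Named genes follow a rule: all 8 factors, the 3 closest genes of each, and of each list up to 4 called genes per direction with the largest change and the same sign in both libraries. A gene that this rule would name is not reported here. Of 31053 gene IDs 31011 were in GENCODE M21. Promoter sequences are from RefSeq.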

Additional observations from a re-analysis of the deposited data

How the results depend on the processing

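All alternatives were planned: DESeq2, its size factors within edgeR, no filter on low counts, no library block, stricter cell filters, cells thinned to 2000 UMIs, the rule keratins left out, other class bounds, and each library alone. Grhl3 was too sparse to test after thinning. Over the 8 factors and all comparisons, 551 values counted as the same. Under another fit these kept their direction and side of the threshold. For a library alone they lay within 1 SE of the main value, with no p-value and, for uncalled factors, no check of sign. Of the rest, 22 lost the call, 7 gained one and 35 single-library values moved by more than 1 SE. Another 19 changed sign under another fit, none of the 19 called in the main fit or under the alternative. Of the named genes of the 4 lists, 1459 values kept the call or, for a library alone, lay within 1 SE. Another 105 single-library values moved further. The part of the prior count in the moved values of factors and list genes was not tested. The call was lost by 194, 79 of 133 without the block, 45 of 133 in DESeq2 and 31 of 123 after thinning.

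Without the replicate block, in fits that ignore the pairing of classes within a library, the called factors were 3 (limbal-type against corneal-type, 5 with it), 4 (conjunctival-type against corneal-type, 7 with it), 0 (mixed, 1 with it), 1 (surface, 3 with it) and 1 (cycle, 4 with it). Genes called in all were then 1518, 1690, 269 (conjunctival-type against limbal-type), 110, 30 and 698, against 3147, 3323, 1199, 760, 1565 and 2875 with the block. DESeq2 called 1786, 1854, 563, 402, 319 and 624 genes, with 1 factor each in the surface and cycle comparisons. Thinning gave 1869, 1760, 530, 277, 662 and 1530 genes, and 0 factors in mixed cells. In mixed cells the called factors were 2 without the filter or without the rule keratins and 3 without the highest doublet scores. The median share of cells with a UMI over factors and classes was 18.3% at 2000 UMIs, 39.6% unthinned and 9.61% at 1000 UMIs, so shares compare only at 1 depth.

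Leaving aside each library alone, signs changed for these log2 fold changes. In mixed cells they were Trp63 at 0.019 without the highest doublet scores, 0.19 thinned and 0.030 with bounds 0.3 and 0.9; Elf3 at -0.026 without the filter, -0.042 without the highest doublet scores and -0.090 thinned; Grhl3 at -0.50 without the highest doublet scores; Tfap2a at 0.068 thinned; and Tgm1 at -0.72 thinned, the only one called in the main fit. In the surface comparison Pax6 was 0.028 (mitochondrial limit 10%), 0.048 (1000 genes), 0.036 (thinned) and 0.0091 (split in the middle), and Barx2 -0.074 (DESeq2), -0.013 (mitochondrial limit), -0.014 (1000 genes) and -0.37 (thinned). In the cycle comparison Barx2 was 0.025 in DESeq2 and 0.082 split in the middle, and between conjunctival- and limbal-type cells Pax6 was -0.0083 thinned. The causes were not tested. Grhl3 had 4 to 75 UMIs per class and library.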
